A study of Mus musculus with 16 samples.

Results

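Chaperones are proteins that help other proteins fold, keep unfolded ones from clumping and hand damaged ones to degradation. Probe sets were taken as chaperone probe sets where the platform annotation gave a single gene symbol of the families Hspa, Hspb, Hsp90, Hspd1, Hspe1, Hsph1, Dnaja, Dnajb, Dnajc or Cct2 to Cct8, or the symbol Cryab. This gave 78 of 12488 probe sets, for 55 of the 8252 genes with a probe set of 1 symbol. Of these genes, 49 passed the filter on low values and were tested, with the probe set of the highest mean for each gene. The 6 genes below the filter were Hspa1l, Hspb1, Dnajb3, Dnajb5, Dnajb8 and Dnajc11. Hsp90ab1 had no probe set with a single symbol here.

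The RNA came from mouse spinal cord and was read on 16 single-colour arrays. By their titles, 6 arrays were of spastic cords (a sample titled M at 6 months, female, on 2 arrays; 2 female samples at 2 months; a sample titled sev at 3 months, male; and a male sample titled 3+ months), 2 arrays were of 1 B6C3Fe male at 1 month, 4 of controls at 12 months and 4 of controls at 9 months, with 1 female and 1 male sample at each control age. The spastic mutation is a recessive allele of Glrb, the gene for a subunit of inhibitory glycine receptors, and B6C3Fe is a hybrid stock. The strain and Glrb genotype of the controls are not given in the labels. Arrays a and b of one title were averaged, leaving 5 spastic, 1 B6C3Fe and 4 control samples. The labels do not say whether samples or arrays were separate animals, so p-values measure only the spread between these samples. Group and age change together: every spastic sample was titled younger than the controls and older than the B6C3Fe sample, apart from the open bound of 3+ months.

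Values are log2 intensities, so 1 unit is a 2-fold difference, and levels were compared only within a probe set. The median over the 49 tested chaperone genes was 10.13 to 10.33 on spastic arrays, 10.22 to 10.42 on B6C3Fe arrays and 10.40 to 10.88 on control arrays. Glrb read 9.92 to 11.11 on spastic arrays, 12.92 to 12.98 on B6C3Fe arrays and 12.70 to 13.30 on control arrays. Some arrays stood apart. The 2 spastic arrays titled male carried Xist at 10.37 and 10.54, the female level, against their titles. By Xist every spastic sample was thus female, while the fits used titled sex. Array a of the 9-month female controls had a ratio of 3-prime to 5-prime signal of the control gene Pcx of 2.72 on the log2 scale, while the other control arrays had 1.31 to 2.09. That ratio, a measure of RNA quality, was 2.00 to 2.98 on spastic arrays and 1.67 to 1.89 on B6C3Fe arrays. Both arrays of the spastic sample titled M had a top intensity of 62770 or 63070, against 16670 to 30450 on all other arrays.

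The heat shock response works as a circuit. Heat shock factor 1 is held back by chaperones, is released when unfolded proteins occupy them, and binds heat shock elements, which are inverted repeats of the letters GAA and TTC, before chaperone genes. Hsp70 proteins bind and release unfolded stretches by hydrolysing ATP, J-domain proteins bring them clients and start the hydrolysis, Hsp110 exchanges the nucleotide, Hsp90 matures kinases and receptors, small heat shock proteins hold clients without ATP, and the ring-shaped chaperonins fold actin and tubulin in the cytosol (CCT) and imported proteins in mitochondria (Hspd1 with its lid Hspe1). In spinal cord, motor neurons are known for a high threshold for inducing Hsp70, and chaperone genes such as Hspb8, Hspb1 and Dnajb2 are mutated in human motor neuropathies.

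Promoters are shown for the genes on which the results turn and for a pair that shares its promoter. RefSeq promoters of GRCm38.p6, from 250 bases before to 50 after each annotated start, were matched by gene identifier for 46 of 55 member genes, with 60 promoters. The letters searched were GAANNTTC and TTCNNGAA, each its own reverse complement, and 3-unit forms that extend GAANNTTC by NN and GAA, or TTCNNGAA by NN and TTC; the 3-unit forms are reverse complements of each other and contain the shorter ones. A shorter form stood in 16 of 60 member promoters (26.7%) and in 15.1% of all 32851 promoters. A 3-unit form stood in 6 of 60 member promoters (10%), against 0.603% of all promoters. These belonged to 4 of 46 genes (8.7%), Dnajb6, Hspd1, Hspe1 and Hsph1, against 0.662% of all genes with a promoter. The windows of Dnajb6 overlap, as do those of Hsph1, and Hspd1 and Hspe1 share a stretch. The count of promoters thus holds the same sites more than once. Hspa1b and Hspa1a encode the stress-inducible Hsp70 and lie 12918 bases apart on chromosome 17. Their 250 bases before the start differed at 3 positions (98.8% identical), and each held 1 match, shown in capitals as in the sequences that follow. All are written 5′ to 3′ on the strand of the gene.
Hspa1b, chr17:34959239-34959488, minus strand: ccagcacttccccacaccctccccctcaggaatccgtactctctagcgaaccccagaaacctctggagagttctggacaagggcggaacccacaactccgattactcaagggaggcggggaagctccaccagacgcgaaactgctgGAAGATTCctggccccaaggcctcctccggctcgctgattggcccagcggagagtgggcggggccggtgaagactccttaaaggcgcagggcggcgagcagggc
Hspa1a, chr17:34972157-34972406, minus strand: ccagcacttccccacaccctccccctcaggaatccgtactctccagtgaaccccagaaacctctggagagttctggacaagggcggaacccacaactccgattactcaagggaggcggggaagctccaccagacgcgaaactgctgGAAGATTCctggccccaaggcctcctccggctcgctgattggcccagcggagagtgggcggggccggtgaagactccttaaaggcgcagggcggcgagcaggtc
Hspe1, chr1:55087898-55088147, plus strand: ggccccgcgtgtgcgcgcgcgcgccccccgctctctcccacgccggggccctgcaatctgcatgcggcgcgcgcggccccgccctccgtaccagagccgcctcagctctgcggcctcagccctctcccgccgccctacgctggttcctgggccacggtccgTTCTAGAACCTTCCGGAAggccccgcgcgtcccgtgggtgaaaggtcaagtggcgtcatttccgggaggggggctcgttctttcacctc
Hsph1, chr5:149636287-149636307, minus strand: ctgcagaTTCTGGAAAGTTCt
Hspb8, chr5:116422846-116422871, minus strand: aagccaggaGAAGTTTCtaggctcgc

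The Hspe1 stretch also serves Hspd1, which is transcribed the other way from a start 216 bases away; the windows of both genes share 285 bases, and the capitals mark overlapping 3-unit matches. The short Hsph1 stretch holds a 3-unit match a little after the annotated start. The short Hspb8 stretch holds a match of the shorter form just after the annotated start. Both Dnajb1 windows held none of these letters. A match describes the letters and was not tested as a binding site.

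Spastic cords differed from control cords in 9 of 49 chaperone genes (18.4%) at an adjusted p under 0.05 in limma, 2 higher and 7 lower (1 higher and 8 lower under quantile normalization). Over all 6427 probe sets tested, 1270 passed (19.8%), 9.83% higher and 9.93% lower, so the share among chaperones was near that of the whole array. The median difference was -0.14 among chaperone genes and -0.02 over all. Called genes lay in the small heat shock proteins (1 of 4), Hsp70 (2 of 9), CCT (2 of 8) and the J-domain families B (1 of 7) and C (3 of 13). None was called among Hsp110 (1 gene), Hsp90 (2), the mitochondrial chaperonin (2) and J-domain A (3). In cord tissue, fewer cells of a type and less RNA per cell cannot be told apart. The plot of differences by family shows each gene with its interval.

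**Figure D1:**
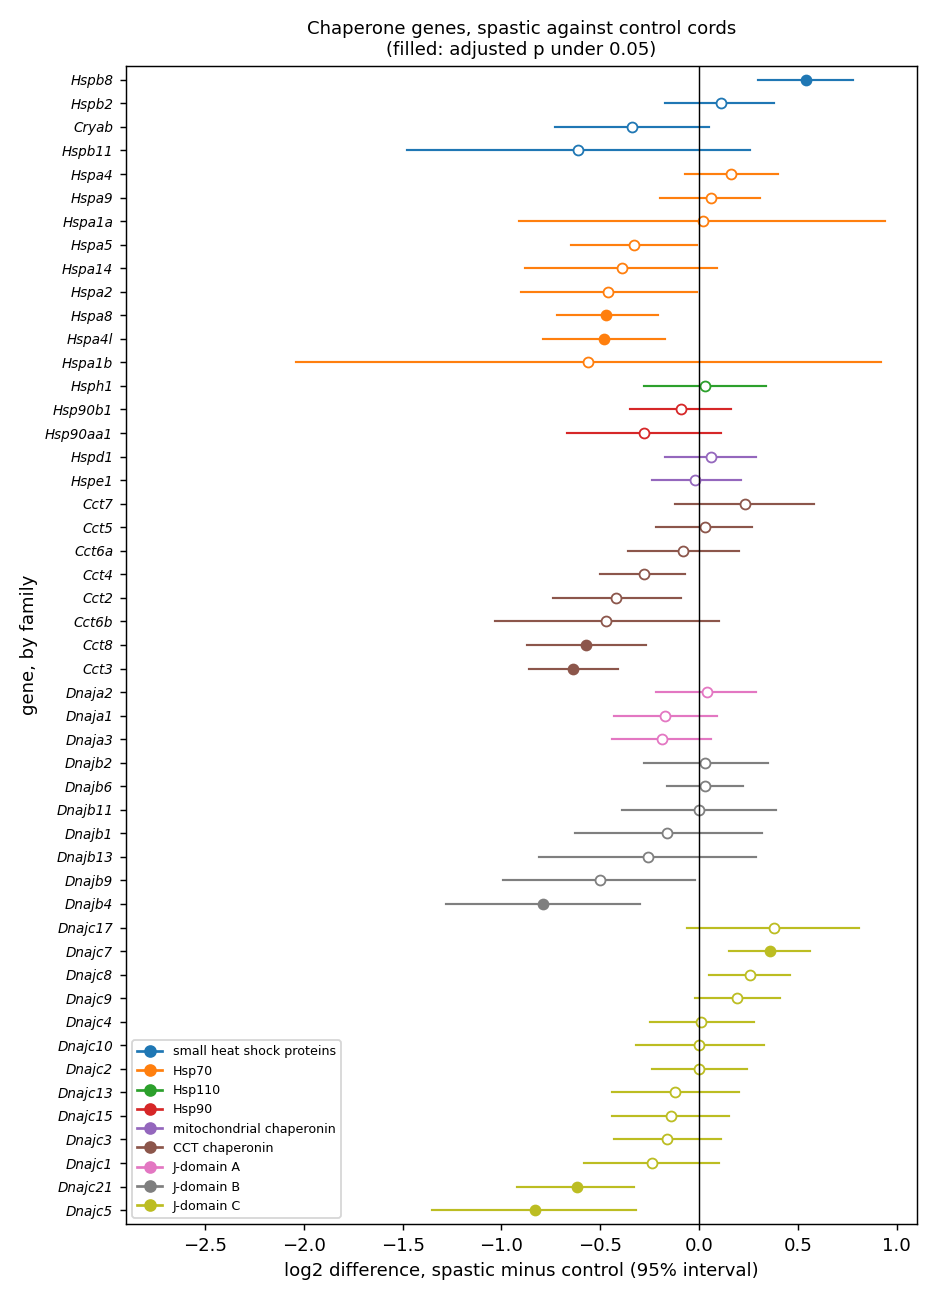
Log2 difference, spastic minus control, for the 49 chaperone genes tested, grouped by family, with 95% intervals from limma. Filled points passed an adjusted p under 0.05: Hspb8 and Dnajc7 lie to the right of 0, and the other 7 filled points to the left.

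Hspb8, a small heat shock protein that works with Bag3 to deliver misfolded proteins to autophagy, was higher in spastic cords. Its log2 intensity ran from 11.22 over a median of 11.56 to 11.74 on the 6 spastic arrays, was 11.11 and 11.34 on the B6C3Fe arrays, and ran from 10.75 over 11.03 to 11.15 on the 8 control arrays. Every spastic array lay above every control array, and the B6C3Fe arrays lay between the control and spastic medians. The difference was 0.54 (SE 0.11, 1.46-fold, adjusted p = 0.00695 in limma). It was the only chaperone gene of 49 with all spastic arrays above all controls (2.04%), against 3.69% of all probe sets. Leaving out any 1 sample kept the call; without the 2 spastic samples titled male the difference was 0.49 (adjusted p = 0.0892). Bag3, its partner, was also higher (0.44, adjusted p = 0.0476 in limma), just under the threshold. How that call depends on single samples is not given here.

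Of the other small heat shock proteins, none was called. Cryab, alpha-B crystallin, which is abundant in oligodendrocytes and muscle, differed by -0.34 (adjusted p = 0.203). Hspb2, encoded beside Cryab, differed by 0.11 (adjusted p = 0.589), and Hspb11, a ciliary transport protein despite its symbol, by -0.61 (adjusted p = 0.303). Hspb1, the Hsp27 of motor axons, was below the filter, with values at the floor of 5.93 on 10 of 16 arrays. A further probe set of Hspb8 read near the floor on most arrays and differed by 0.41.

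Among Hsp70 genes, Hspa8 and Hspa4l were lower in spastic cords. Hspa8 encodes the constitutive Hsc70, which also strips clathrin from synaptic vesicles. It read 12.81 to 13.13 with a median of 12.93 on spastic arrays, 13.03 and 13.09 on B6C3Fe arrays, and 12.88 to 13.63 with a median of 13.44 on control arrays. One control array, array a of the 12-month male, lay among the spastic arrays, and the other 7 lay above them. The difference was -0.47 (SE 0.12, adjusted p = 0.0179); leaving out the 12-month female or the 9-month male control ended the call (adjusted p = 0.0634 and 0.0542).

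Hspa4l, an Hsp110-like exchange factor, read 9.99 to 10.66 with a median of 10.17 on spastic arrays, 10.58 and 10.63 on B6C3Fe arrays, and 10.02 to 10.88 with a median of 10.80 on control arrays. Spastic sample 2 at 2 months was the high spastic value, and array a of the 9-month females the low control value; the other arrays of both groups did not overlap. The difference was -0.48 (SE 0.14, adjusted p = 0.0356) and -0.60 without that control array (adjusted p = 0.00786), but 7 of 10 fits that each left out 1 sample ended the call.

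The remaining Hsp70 genes were not called. Hspa5, the Hsp70 of the endoplasmic reticulum, differed by -0.33 (adjusted p = 0.136), Hspa9, that of mitochondria, by 0.06 (adjusted p = 0.764), and Hspa4, an Hsp110 relative, by 0.16 (adjusted p = 0.316), while its other 4 probe sets had -0.44 to -0.09. Hspa2 had -0.46 and Hspa14 -0.39 (adjusted p = 0.135 and 0.237). The inducible genes were the most variable: Hspa1a differed by 0.02 (SE 0.42) and Hspa1b by -0.56 (SE 0.67). Their spread followed samples within each group and is described with the control ages below. Hsp110 itself, Hsph1, differed by 0.03 (interval -0.28 to 0.34), the cytosolic Hsp90 gene Hsp90aa1 by -0.28 (interval -0.67 to 0.11), and Hsp90b1 of the endoplasmic reticulum by -0.09 (interval -0.35 to 0.16). The mitochondrial chaperonin genes Hspd1 and Hspe1, with 1 promoter region between them, differed by 0.06 (interval -0.17 to 0.29) and -0.02 (interval -0.24 to 0.21).

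The CCT ring is built of different subunits in fixed places, and its genes did not move as one. Cct3 and Cct8 were lower in spastic cords. Cct3 read 10.03 to 10.58 with a median of 10.30 on spastic arrays, 10.60 and 10.82 on B6C3Fe arrays, and 10.55 to 11.21 with a median of 11.08 on control arrays. Again only array a of the 9-month females, at 10.55, reached the spastic range. The difference was -0.64 (SE 0.10, adjusted p = 0.00272) and kept its call whichever sample was left out. The other Cct3 probe sets differed by -0.05 and 0.03, so the call rests on 1 of 3 probe sets. That probe set carries the suffix s, which Affymetrix gives to sets whose probes can match more than 1 transcript.

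Cct8 read 9.49 to 10.46 with a median of 10.27 on spastic arrays, an average of 9.75 on both B6C3Fe arrays, and 10.26 to 11.12 with a median of 10.80 on control arrays. Here the B6C3Fe arrays were as low as the spastic ones, and 1 control array at 12 months overlapped them. The difference was -0.57 (SE 0.14, adjusted p = 0.0161); counting B6C3Fe as a control and adding log2 age as a term gave -0.11 (adjusted p = 0.752). The call also ended without the 12-month female control (adjusted p = 0.0638) and against the 12-month or the 9-month controls alone (adjusted p = 0.0801 and 0.0647). Cct4 had every spastic array (10.91 to 11.34) below every control array (11.38 to 11.87) but missed the threshold (-0.28, adjusted p = 0.0627). Together with Dnajc21 it made 2 of 49 chaperone genes (4.08%) with all spastic arrays below all controls, against 4.33% of all probe sets. Cct2 differed by -0.42 (adjusted p = 0.0698), Cct5 by 0.03, Cct6a by -0.08 and Cct7 by 0.23.

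J-domain proteins of classes A and B carry the domain at the amino end and bind clients themselves, while class C holds specialised members. In class A, Dnaja1 and Dnaja3 differed by -0.17 and -0.19, with no call. In class B only Dnajb4, a heat-inducible partner of Hsp70, was lower. It read 7.39 to 8.81 with a median of 8.16 on spastic arrays, 7.93 and 8.62 on B6C3Fe arrays, and 8.54 to 9.36 with a median of 9.06 on control arrays. The highest spastic array (8.81) and the higher B6C3Fe array lay above the lowest control array (8.54), so the groups overlapped. The difference was -0.79 (SE 0.22, 1.73-fold lower, adjusted p = 0.0287), and 6 of 10 fits that left out 1 sample ended the call. Dnajb1, the main heat-inducible partner of Hsp70, differed by -0.16 (adjusted p = 0.648).

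In class C, Dnajc7 was higher and Dnajc21 and Dnajc5 were lower. Dnajc7, which binds both Hsp70 and Hsp90 through TPR repeats, read 11.95 to 12.22 with a median of 12.16 on spastic arrays, 11.72 and 11.82 on B6C3Fe arrays, and 11.61 to 12.03 with a median of 11.76 on control arrays. Only array a of the 12-month males lay above the lowest spastic array. The difference was 0.36 (SE 0.09, adjusted p = 0.0223), and 3 of 10 fits that left out 1 sample ended the call, as did quantile normalization.

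Dnajc21, a factor of ribosome maturation, read 8.39 to 9.0 with a median of 8.61 on spastic arrays, 8.59 and 8.87 on B6C3Fe arrays, and 9.01 to 9.42 with a median of 9.22 on control arrays. All spastic and both B6C3Fe arrays lay below all controls. The difference was -0.62 (SE 0.13, adjusted p = 0.00949). It kept its call whichever sample was left out, but not with only the a arrays (adjusted p = 0.0654), with log2 age as a term (adjusted p = 0.103) or without both spastic samples titled male (adjusted p = 0.081).

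Dnajc5 encodes cysteine string protein, the synaptic vesicle chaperone that works with Hsc70 on the SNARE protein Snap25. It read 8.75 to 9.57 with a median of 9.13 on spastic arrays, 9.50 and 9.74 on B6C3Fe arrays, and 10.18 to 10.40 on 7 of 8 control arrays. The remaining control array, array a of the 9-month females, read 8.14, below every other array, while its partner array b read 10.35. The difference was -0.83 (SE 0.23, 1.78-fold lower, adjusted p = 0.0288) with that array and -1.14 (adjusted p = 0.00079) without it. Of 10 fits that left out 1 sample, 6 ended the call.

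Dnajc8, a splicing-associated member, gave opposite signs on its probe sets, 0.26 (adjusted p = 0.0754) and -0.71. Dnajc17 differed by 0.38 (adjusted p = 0.203), with 1 control array, array b of the 12-month females, at 6.86 and its partner at 8.58; without that sample the difference was 0.14, and it was 0.67 against 12-month and 0.09 against 9-month controls. The endoplasmic reticulum members Dnajc3 and Dnajb9 had -0.16 and -0.50 (adjusted p = 0.40 and 0.132). The plot of called genes shows single arrays.

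**Figure D2:**
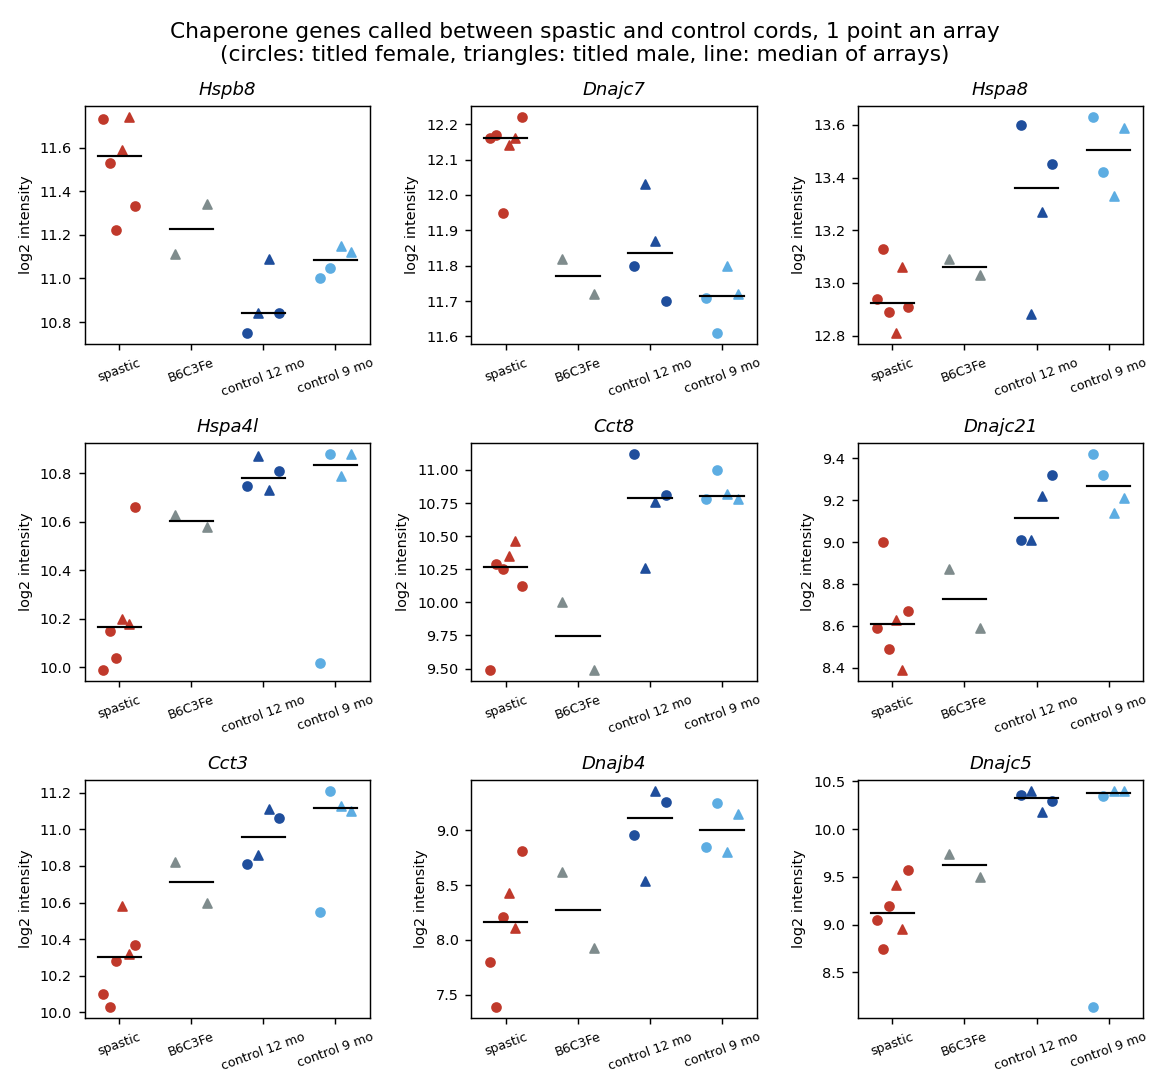
Log2 intensity on each array of the 9 chaperone genes called between spastic and control cords; circles are arrays titled female, triangles arrays titled male, and the line is the median of arrays. Hspb8 and Dnajc21 separate all spastic from all control arrays, and 1 low 9-month control array is seen for Dnajc5 (8.14), Hspa4l (10.02) and Cct3 (10.55).

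Of 3 ratios of 3-prime to 5-prime signal, that of Pcx was mostly higher on spastic arrays, while those of Actb (-0.56 to 0.71 on spastic, -3.29 to -1.21 on B6C3Fe and -0.45 to 1.27 on control arrays) and Gapdh (-0.67 to -0.10 on spastic, -0.49 to -0.16 on B6C3Fe and -0.64 to 0.99 on control arrays) overlapped between spastic and control arrays. With the Pcx ratio added to the model, 0 of 49 chaperone genes and 9 of 6427 probe sets passed. Hspb8 then differed by 0.34, Cct3 by -0.45, Dnajc21 by -0.61 and Dnajc5 by -0.09. The ratio changed largely together with the group, so this fit cannot tell them apart. Standard errors also grew where shown, for Dnajc17 from 0.2 to 0.31. The part of RNA quality in the calls was not tested. Counts of markers called stand beside 9.83% higher and 9.93% lower over all probe sets. Of 7 endothelial and mural markers, 6 were higher in spastic cords, with summed intensities of 5298 to 7196 on spastic arrays, 2456 to 2705 on B6C3Fe arrays and 2473 to 3481 on control arrays. Astrocyte (2 of 5), microglial (2 of 4) and skeletal muscle (2 of 10) markers were partly lower. Muscle also expresses Cryab and Hspb2. The muscle markers summed to 9091 to 21450 on spastic arrays, 15350 to 16250 on B6C3Fe arrays and 15130 to 23060 on control arrays. That sum includes Pvalb, the highest muscle marker tested, with means of 13.01 in spastic and 13.06 in control cords (difference -0.06). It therefore says little of the other muscle markers. The 10 tested differed by -3.44 (Myh4) to 0.03 (Ckm). Of 8 neuron markers 1 was higher and 3 lower, of 3 motor neuron markers 2 were higher, and none of 5 oligodendrocyte or 2 blood markers was called. Isl1, a motor neuron marker, was at the floor on all spastic and B6C3Fe arrays, and the microglial Aif1 on both B6C3Fe arrays. No value was had for Schwann cell markers. The part of cell makeup in the chaperone differences was not tested.

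The partners of these chaperones were taken from lists of pathway genes. Over all probe sets tested, 9.83% were called higher in spastic cords and 9.93% lower, the shares to set beside the counts that follow. Of 17 cofactors of Hsp70 and Hsp90 tested, 5 were higher in spastic cords and 3 lower. The higher ones were Fkbp5, a glucocorticoid-inducible Hsp90 immunophilin (1.27, adjusted p = 0.0045; 11.00 in spastic and 9.82 in control cords on average), the ubiquitin ligase Stub1 (0.47), Bag3, the immunophilin Fkbp4 (0.38) and the phosphatase Ppp5c (0.38). The lower ones were the Hsp70-interacting St13 (-0.76, adjusted p = 0.00569), Chordc1 (-0.52) and Sugt1 (-0.40), both cochaperones of Hsp90. The B6C3Fe sample read near the spastic mean for Fkbp5 (11.07 and 11.00), Fkbp4 (12.49 and 12.52) and Sugt1 (10.89 and 10.88). For Stub1 (11.36) and St13 (9.22) it lay between the spastic and control means. It lay below both means for Bag3 (9.22) and Ppp5c (8.54), and near the control mean for Chordc1 (11.00 and 11.04). Of 5 genes of prefoldin and the rest of CCT, Pfdn2 (0.49) and Pfdn6 (0.41) were higher, Vbp1 (-0.49) was lower and Tcp1, the first CCT subunit, differed by 0.26 without a call. Of 7 genes of the unfolded protein response, Sel1l (-1.0) and Xbp1 (-0.46) were lower, and 0 of 8 endoplasmic reticulum folding genes was called. Lonp1, a mitochondrial protease, was higher (0.54); Hmox1 (0.00) and the heat shock factor binding protein Hsbp1 (-0.10) were not called.

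Between the control ages the differences of the Hsp70 genes Hspa1b and Hspa1a were the largest among chaperone genes, with no call after adjustment. At an adjusted p under 0.05, 0 of 49 chaperone genes and 0 of 6427 probe sets (0%) passed between 12 and 9 months in limma. Unadjusted, 10 of 49 chaperone genes (20.4%) had p under 0.05, against 5.38% of all probe sets. In 10 of 49 genes (20.4%) every 12-month array lay below every 9-month array, against 3.75% of all probe sets, and in 1 (2.04%), Dnajc10, every 12-month array lay above, against 3.63%. The median difference was -0.19 among chaperone genes and -0.01 over all. The ages also differed in the share of probe sets at the floor, 14.7 to 19.5% on 12-month and 20.3 to 21.5% on 9-month arrays. The part of this array-wide difference in the chaperone values was not tested. With 2 samples an age, an exact permutation test of 1 gene cannot go below p = 0.333.

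Hspa1b had the largest difference of all 6427 probe sets in that comparison. It read 7.25, 7.81, 7.87 and 7.90 on the 12-month arrays and 10.38, 10.45, 10.72 and 11.04 on the 9-month arrays. The ages were separated by more than the whole range within either, in both sexes. The difference was -2.94 (SE 0.51, 7.68-fold lower at 12 months, unadjusted p = 0.000163, adjusted p = 0.569 in limma).

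Hspa1a, whose promoter is nearly the same, read 9.03 to 9.60 on the 12-month arrays and 10.63 to 10.96 on the 9-month arrays, a difference of -1.48 (SE 0.47, adjusted p = 0.897). Transcripts of these neighbours are close in sequence, so their probe sets may read both genes. In the other groups, Hspa1b read 7.92 and 7.99 in the 2-month spastic samples, 8.29 in the one titled sev, 9.33 in the one titled 3+ months, and 9.43 and 9.50 on the arrays of the one titled M, with 8.80 and 9.01 on B6C3Fe arrays. No spastic or B6C3Fe array reached the 9-month controls, and all lay above the highest 12-month control. Hspa1a had the same high and low spastic samples, with 9.27 and 9.29 at 2 months, 9.92 in sev, 10.59 and 10.62 in M and 11.01 at 3+ months, against 8.90 and 9.16 on B6C3Fe arrays. For Hspa1a the highest spastic array lay above every 9-month array, and 1 B6C3Fe array lay below every 12-month array.

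Further genes had every 12-month array below every 9-month array, without a call. Dnajb1 read 9.61 to 9.81 on the 12-month arrays and 10.17 to 10.77 on the 9-month arrays (difference -0.87, SE 0.20, adjusted p = 0.762). Hsph1 read 12.30 to 12.33 at 12 months and 12.69 to 12.94 at 9 months (-0.48, SE 0.16, adjusted p = 0.897). Neither range of arrays overlapped the other for these genes. Cryab read 9.89 to 10.50 at 12 months and 10.74 to 11.62 at 9 months (-0.74, SE 0.15, adjusted p = 0.668), though its further probe set, at the floor on 10 of 16 arrays, had the other sign (0.75). Hspa5 read 12.02 to 12.15 at 12 months and 12.35 to 12.70 at 9 months (-0.50, SE 0.17, adjusted p = 0.897).

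Dnajb11 (-0.58), a partner of Hspa5, Dnajb2 (-0.48), a neuronal member, Hspa2 (-0.43) and Cct7 (-0.32) completed the 10 genes. These 4 and Dnajc10 are named after their values were seen. Cct7 was barely separated: its highest 12-month array had an intensity of 4071 and its lowest 9-month array 4072. Of the other genes, which had overlapping ages, Hspa8 differed by -0.19, Hspd1 by -0.21, Hspe1 by -0.20, Hsp90aa1 by -0.36, Hsp90b1 by -0.22, Dnaja1 by -0.24, Dnajb6 by -0.06 and Dnajb4 by 0.02, with no call. The largest positive difference was that of Dnajb13, an axonemal J-domain protein of cilia and sperm tails (0.82, adjusted p = 0.897), with overlapping ages.

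**Figure D3:**
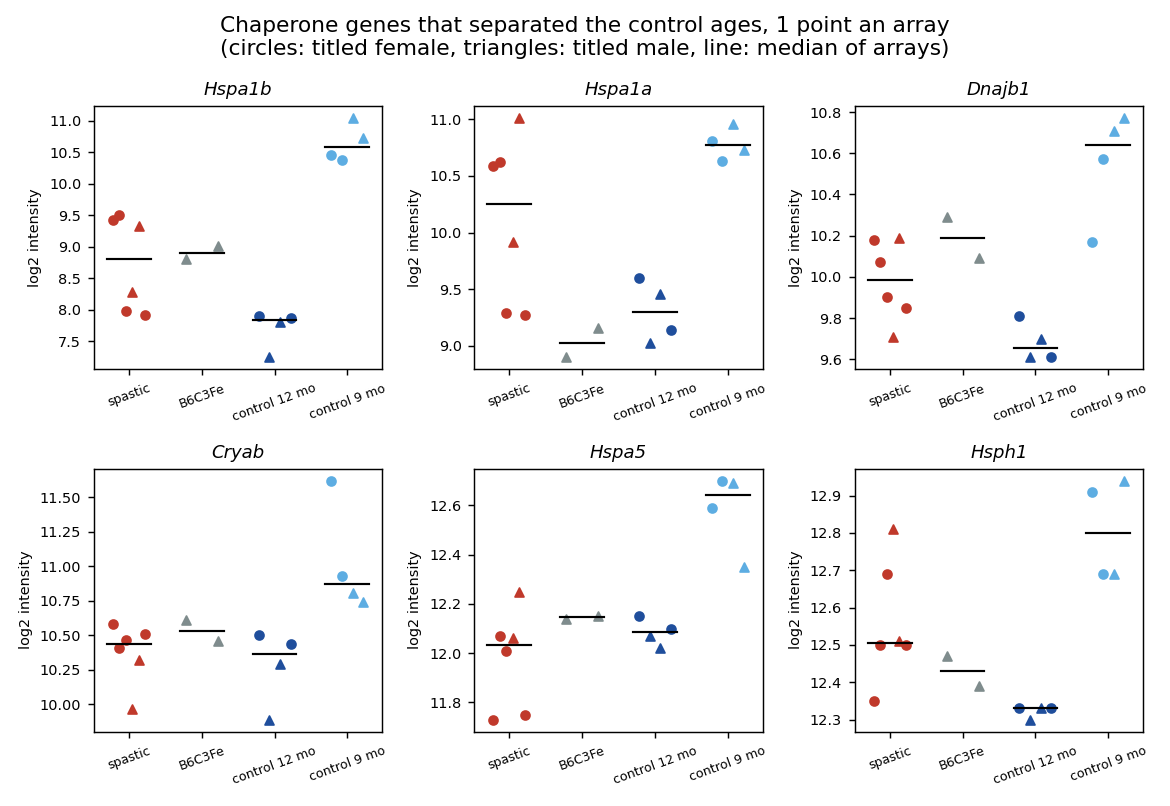
Log2 intensity on each array of 6 chaperone genes whose 12-month and 9-month control arrays did not overlap; circles are arrays titled female, triangles arrays titled male, and the line is the median of arrays. Hspa1b spans 7.25 to 11.04 over the control arrays, and the spastic arrays lie from 7.92 to 9.50.

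**Figure D4:**
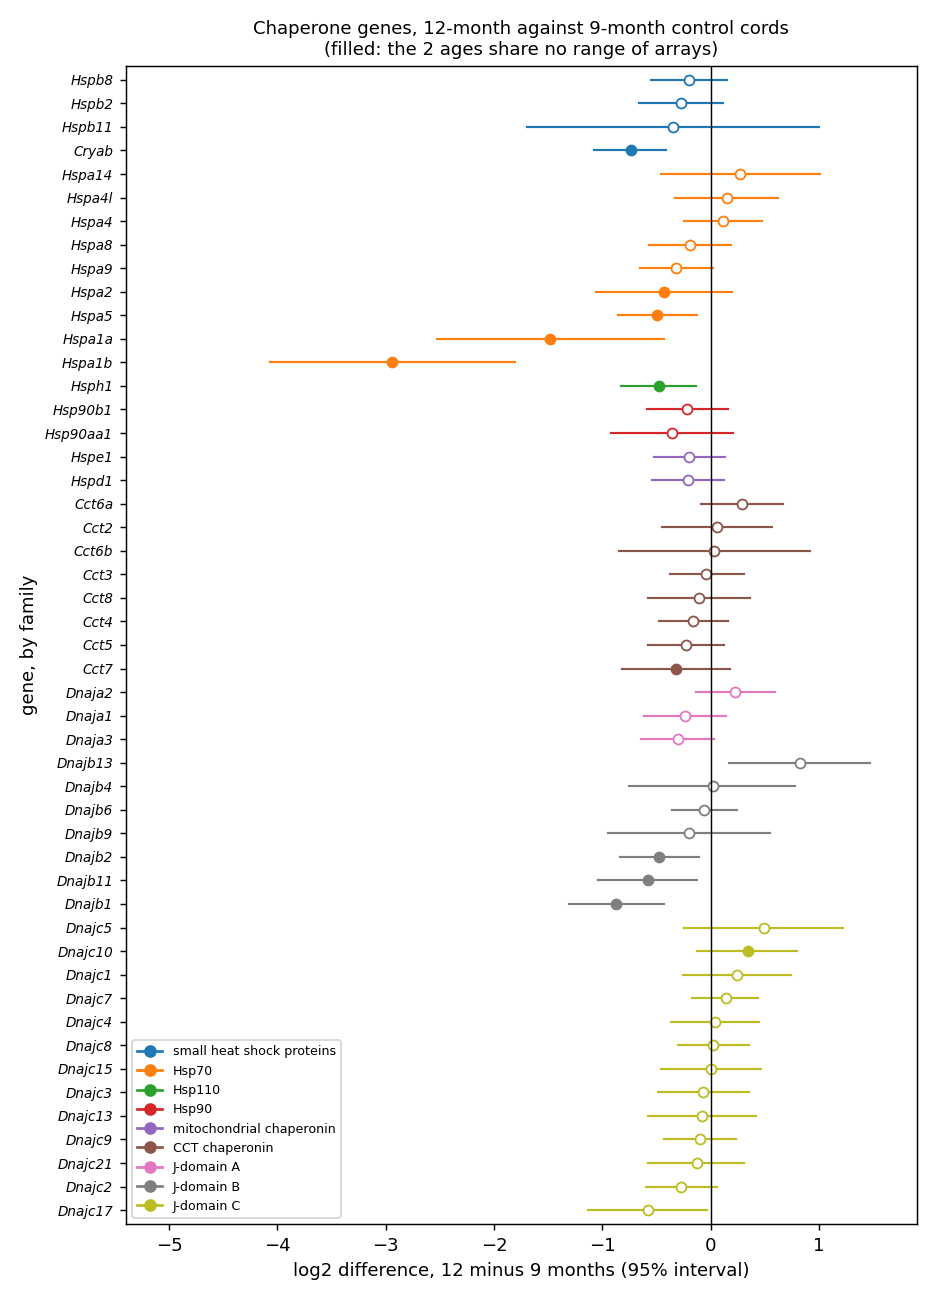
Log2 difference, 12 minus 9 months among controls, for the 49 chaperone genes tested, by family, with 95% intervals from limma. Filled points are the 10 genes with all 12-month arrays below all 9-month arrays and Dnajc10 with all above; none passed an adjusted p under 0.05.

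That comparison shares its spread with the spastic samples, in which Hspa1a and Hspa1b varied widely (SD 0.78 and 0.74 over 5 samples). In a fit of the 4 control samples alone, with 1 residual degree of freedom, 5 chaperone genes passed, against 1.66% of all probe sets: Hspa1b, Hspa1a, Dnajb1 (adjusted p = 0.00072) and Cryab (adjusted p = 0.0024) were lower at 12 months and Dnajb13 (adjusted p = 0.0486) was higher. In that fit limma took practically the spread common to all genes, so its p-values do not rest on the genes' own spread.

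Because the control ages differed, spastic cords were also set against each age alone, a comparison added after seeing the data. Against 12-month controls, 3 of 49 chaperone genes passed, against 13.4% of all probe sets (7.08% higher and 6.29% lower). Hspb8 was higher (0.65) and Cct3 (-0.62) and Dnajc5 (-1.08) were lower. Against 9-month controls, 6 of 49 passed in limma, all lower, against 6.27% of all probe sets (3.45% lower and 2.82% higher). They were Hspa1b (-2.03, adjusted p = 0.0284), Cryab (-0.71, adjusted p = 0.0201), Cct3 (-0.66), Dnajc21 (-0.69), Hspa5 (-0.58) and Hspa8 (-0.57). Hspa1b differed by 0.91 from 12-month controls (SE 0.43, adjusted p = 0.182), so its sign depends on the control age. Hspa1a (0.75 and -0.72), Dnajb1 (0.28 and -0.59) and Hsph1 (0.27 and -0.21) likewise changed sign between the 12-month and the 9-month controls, with no call. Cct3 (-0.62 and -0.66), Dnajb4 (-0.80 and -0.78), Dnajc21 (-0.56 and -0.69) and Hspb8 (0.65 and 0.44) had the same sign against both. Both comparisons share the spastic samples.

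**Figure D5:**
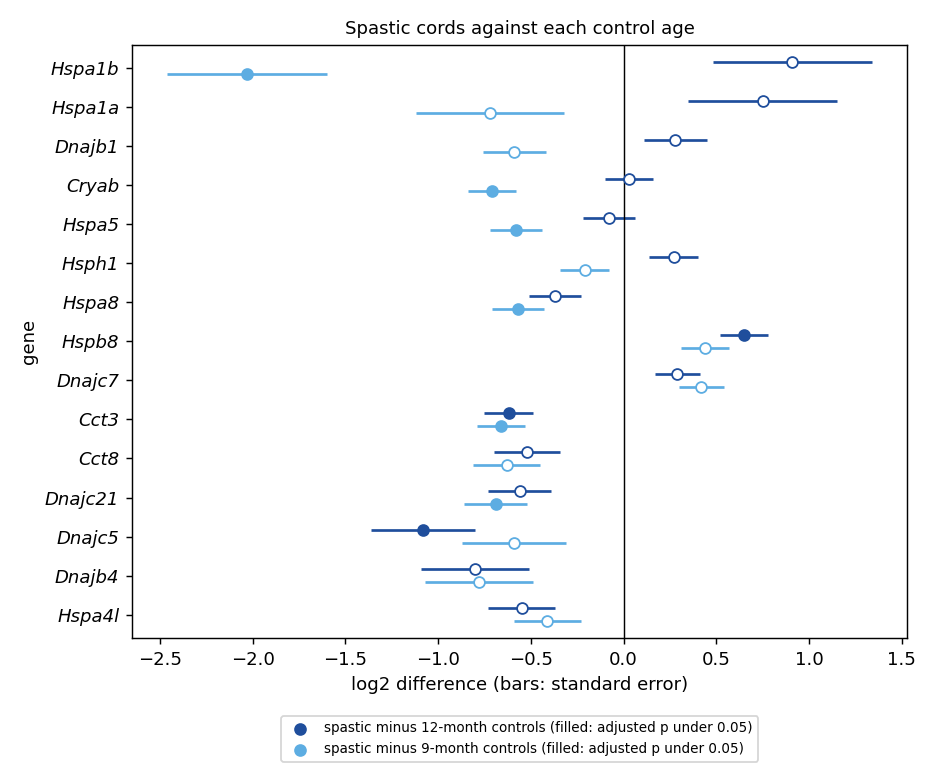
Log2 difference of spastic cords from 12-month controls (dark) and from 9-month controls (light) for 15 chaperone genes, with standard errors; filled points passed an adjusted p under 0.05. Hspa1b lies at 0.91 against 12-month and at -2.03 against 9-month controls, while Cct3 lies at -0.62 and -0.66.

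The young B6C3Fe sample gave a further standard of comparison, with 1 sample on 2 arrays that was assumed to vary like the other groups. Xist read 10.37 to 11.45 on spastic arrays and 5.93, the floor, on both B6C3Fe arrays. By Xist, spastic against B6C3Fe was therefore also female against male, which the term for titled sex does not remove. The part of sex in these differences was not tested. Between spastic and B6C3Fe cords, 0 of 49 chaperone genes passed, against 2.05% of all probe sets; unadjusted, 3 had p under 0.05 (6.12%), against 20.3%. These were Dnajc8, with 0.58 (adjusted p = 0.0938), Cct5, with 0.47 (adjusted p = 0.215), and Dnajc7, with 0.41 (adjusted p = 0.196). Hspb8 differed by 0.40 (adjusted p = 0.262), with overlapping arrays. The largest differences were those of Hspa1a (1.23, SE 0.73) and, downward, Cct6b (-0.64) and Dnajb13 (-0.59).

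Between B6C3Fe and control cords, 0 of 49 chaperone genes passed, against 0.389% of all probe sets; unadjusted, 3 had p under 0.05 (6.12%), against 15%. Cct8 was nearest the threshold: it averaged 9.75 on both B6C3Fe arrays, each below all controls, and read 10.26 to 11.12 on control arrays, with a difference of -1.07 (SE 0.24, 2.10-fold lower, adjusted p = 0.0831). Dnajc3, an inhibitor of the kinase of the unfolded protein response, differed by -0.56 (adjusted p = 0.253) and Cct5 by -0.44 (adjusted p = 0.322). Hspa1a differed by -1.22 (SE 0.73) and Hspa1b by -0.38 (SE 1.17). The median difference over chaperone genes was -0.22, with 38 of 49 below 0, against a median of 0.01 over all probe sets.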

How the data were processed

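Spinal cord RNA of mice was measured on single-colour arrays, deposited as intensity values per probe set. The trimmed mean (2% removed at each end), computed here, was 800.4 to 800.5 on every array. The values were therefore taken as already scaled. No source used here names the scaling or the software. Median intensity was 289 to 383.6, and 14.7 to 24.1% of probe sets lay at the floor. Precision is limited by the number of arrays.

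Here intensities under the 20th percentile (60.9) were set to it and log2 taken. Control probe sets (66) and those with a mean log2 under the 40th percentile (7.62) were left out, and the probe set of highest mean stood for each gene. Same-titled arrays a and b (correlation 0.933 to 0.977) were averaged. Group and titled sex were fitted over 10 samples with limma 3.58.1 (R 4.3.3, lmFit and eBayes with trend, 2-sided, Benjamini-Hochberg over 6427 probe sets, threshold 0.05). The fit was run on simulated data with independent noise and 200 changed probe sets, with shifts larger than the differences called here. That run checks the code and not the link of group with age or RNA quality. Alternatives changed the floor, filter, normalization, treatment of arrays, probe sets, sex term, controls, RNA quality term and each left-out sample. Figures used Python 3.11.15 and matplotlib 3.10.9.

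Members and lists were chosen with earlier results of these data known. Named genes were called members, a set of well-known chaperones, the highest member of each family, the 3 largest differences in each direction and up to 6 called pathway genes in each direction. Hspb2, Hspa2, Hspa14, Cct4, Cct6a, Cct7, Dnaja3, Dnajb2, Dnajb9, Dnajb11, Dnajc3, Dnajc10, Tcp1, Hmox1 and Hsbp1 were named after their values were seen. Protein sequences were not used here.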

Additional observations from a re-analysis of the deposited data

Results flagged for a closer look

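In 6 of the 54 groups of 4 or 5 samples examined, 1 sample stood apart from the others by Dixon's test; chance gives about 1 in 20 groups. The 9-month female control was low for Dnajc5 (9.25, others 10.29 to 10.40) and for Hspa4l (10.45, others 10.78 to 10.83). Among controls, the 12-month male was low for Hspa8 (13.07, others 13.46 to 13.53) and the 12-month female for Dnajb6 (12.17, others 12.29 to 12.31). Spastic sample 2 at 2 months was high for Hspa4l (10.66, others 10.04 to 10.20), and the spastic sample titled 3+ months was low for Cct5 (11.89, others 12.10 to 12.17).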

How the results depend on the processing

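Between spastic and control cords, where 9 chaperone genes were called, 2 were called with only the a arrays, 4 counting B6C3Fe as a control with log2 age as a term (3 of them among the 9), 4 without the 2 spastic samples titled male (2 of them among the 9), 1 in samples titled female, 0 with the Pcx ratio as a covariate and 3 against 12-month controls only; over all probe sets, where 1270 were called, these settings gave 759, 701, 396, 165, 9 and 859, and 9-month controls only gave 403. Leaving out 1 sample gave 3 to 10 chaperone genes (723 to 1273 probe sets), with 3 without the 12-month female control and 4 without the 9-month male; Hspb8, Cct3 and Dnajc21 kept their call in each. Between control ages, where 0 was called, every array as its own sample gave 3 (10 over all probe sets), sample as a random block 1 (2) and the 4 controls alone 5 (107); no filter gave 0 chaperone genes and 12 probe sets. Spastic against B6C3Fe gave 3 with every array (626 probe sets, against 132), and B6C3Fe against control gave 1 with every array (520, against 25) and 1 with a random block (231). Over all probe sets these comparisons ranged from 6 to 626 and from 4 to 525. The array letter as a replicate block gave 12 between spastic and control (1818 probe sets, 28.3%), 2 between control ages (8), 1 between spastic and B6C3Fe (515) and 1 between B6C3Fe and control (525); the labels do not say what the letter pairs. For the causes, the number of samples fell where samples were left out; otherwise the cause was not tested. No called gene turned its sign. Among genes not called, 51 values of 12 genes did, up to a size of 1.02. The array count limits precision, and genes near the floor have compressed differences.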
